A study of Arabidopsis thaliana with 12 samples.

Results

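AT5G03900 and AT3G51510 are nuclear protein-coding genes of Arabidopsis thaliana that were chosen by their measured fall in the tpt1 mutant. Each has 1 spot on the array that is annotated to it alone, so the pair makes up 2 of the 692 spots annotated to a single gene and 2 of 3439 spots in all. Neither gene appears on any of the 870 spots annotated to several genes. Both spots passed the filter on low values, which asked for at least 4 intensities above 0 in each genotype and which 2849 spots passed. The reference annotation (TAIR10.1) gives each of them a locus name and no symbol, with AT5G03900 on chromosome 5 and AT3G51510 on chromosome 3, so no role is attached to either here.

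The tpt1 samples carry a mutation that the labels describe as lowering triose phosphate transport activity of chloroplasts below 5%, and the WT samples are the wild type; both are of ecotype Wassilevskija. Total RNA of 6 tpt1 and 6 WT samples was measured, and the samples of each genotype are numbered 1 to 6. Age, tissue, growth conditions and the number of plants behind a sample are not given in the sources used here. Whether the numbered samples are separate plants or repeats of one extract is likewise not stated, so the spread between them may be technical. None of the 15 marker genes of seed, root and pollen that were looked up had a spot of its own, so the tissue could not be checked.

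In a leaf in the light, the Calvin-Benson cycle makes triose phosphates in the chloroplast stroma. The triose phosphate/phosphate translocator of the inner envelope exchanges them for cytosolic phosphate, and the cytosol turns them into sucrose. When this exchange is blocked, more of the fixed carbon is held in the chloroplast as starch and leaves it later as sugars. Nuclear genes for chloroplast proteins are read against this background, because their transcripts can follow both the carbon and the redox state of the plastid. No role, in the chloroplast or elsewhere, is attached to either member here.

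On the deposited scale, a linear intensity from 0 to 100, both genes were weak to moderate and their levels in the 2 genotypes overlapped. AT5G03900 had intensities of 0.479, 0.552, 0.294, 0.401, 0.206 and 0.296 in tpt1 samples 1 to 6, against 0.476, 0.510, 0.338, 0.668, 0.279 and 0.353 in WT samples 1 to 6. It was lower in tpt1 in 4 of 6 pairs of equal number, and 5 of the 6 tpt1 values lay above the lowest WT value. The mean was 0.371 ± 0.130 in tpt1 and 0.437 ± 0.143 in WT (SD, n = 6 each), a difference smaller than either SD.

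AT3G51510 had intensities of 0.579, 0.501, 0.520, 0.481, 0.188 and 0.249 in tpt1 samples 1 to 6, against 0.510, 0.384, 0.467, 0.398, 0.488 and 0.529 in WT samples 1 to 6. Here tpt1 was higher than WT for numbers 1 to 4 and lower for numbers 5 and 6, which left it lower in 2 of 6 pairs. The mean was 0.420 ± 0.160 in tpt1 and 0.463 ± 0.0595 in WT (SD, n = 6 each), again a difference within the spread. The plot of deposited intensity by sample shows the steep lines of numbers 5 and 6 against the flat ones of numbers 1 to 4.

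**Figure D1:**
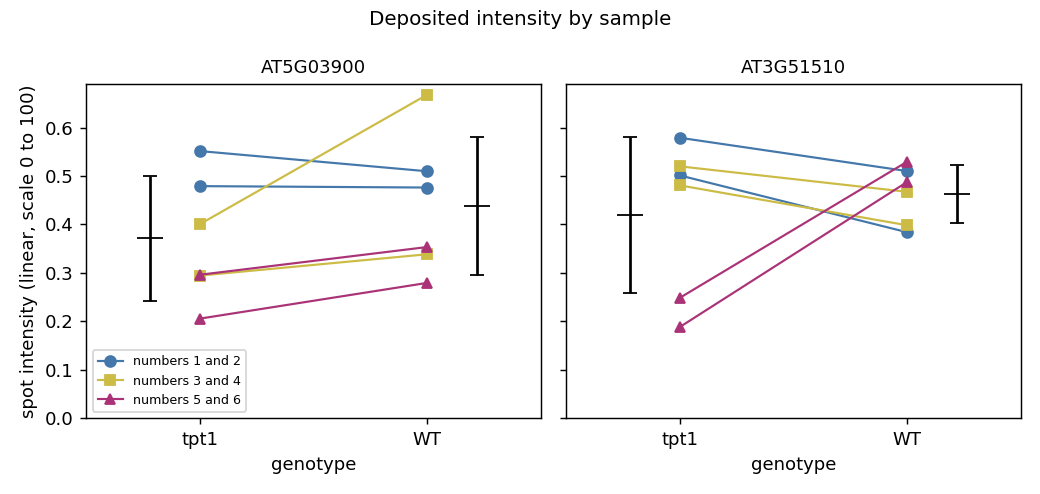
Deposited spot intensity (linear axis from 0) of AT5G03900 and AT3G51510 in 6 tpt1 and 6 WT samples; lines join samples of the same number, colours and markers give neighbouring numbers, and black bars give the mean and SD of each genotype. The genotypes overlap for both genes, and for AT3G51510 the tpt1 samples 5 and 6 lie below all WT samples, at 0.188 and 0.249 against 0.488 and 0.529 in WT 5 and 6.

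The fall for which both genes were picked appeared once their levels were read against the other spots. Sample medians over the non-zero spots, in log2, ran from -1.42 to -0.88 for tpt1 and from -2.38 to -1.72 for WT, so the typical spot was brighter in tpt1 while the means of these 2 were not. Summed intensities were similar, from 2801 to 3547 in tpt1 and from 2725 to 3456 in WT. WT samples held more zeros (490 to 603, against 385 to 476 in tpt1) and more spots at the top of the scale (4 to 7, against 0 to 1). The distributions thus differed in shape and not only in median. In terms of rank, AT5G03900 stood at the 47.6 ± 7.04 percentile of all spots in tpt1 and at the 73.4 ± 6.14 percentile in WT (SD, n = 6 each). AT3G51510 stood at 51.6 ± 10.2 in tpt1 and 75.3 ± 6.85 in WT. Neither gene's ranks overlapped between genotypes, and the choice of both for their fall favoured this. AT5G03900 ran from 37.7 to 56.9 in tpt1 and from 65.7 to 83.9 in WT. AT3G51510 ran from 35.8 to 61.6 in tpt1 and from 65.8 to 83.4 in WT. After quantile normalization, 4.11% of tested spots had every tpt1 value below every WT value.

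Because the sample medians lay more than 0.1 apart on the log2 scale, levels were next compared after quantile normalization, which gives every sample the same distribution. On that scale AT5G03900 had log2 levels of -1.76, -1.52, -2.27, -1.82, -2.39 and -1.90 in tpt1 samples 1 to 6, against -0.91, -0.81, -1.27, -0.34, -1.06 and -0.85 in WT samples 1 to 6. Every tpt1 value lay below every WT value. The means were -1.94 ± 0.33 in tpt1 and -0.87 ± 0.31 in WT (SD, n = 6 each), giving a log2 change of -1.07 (SE 0.20), or 2.10-fold lower in tpt1.

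AT3G51510 had normalized log2 levels of -1.44, -1.69, -1.38, -1.53, -2.49 and -2.11 in tpt1 samples 1 to 6, against -0.81, -1.21, -0.84, -1.06, -0.39 and -0.35 in WT samples 1 to 6. Again no tpt1 value reached a WT value, but numbers 5 and 6 were at once the low end of tpt1 and the high end of WT. The means were -1.77 ± 0.44 in tpt1 and -0.78 ± 0.35 in WT (SD, n = 6 each), giving a log2 change of -0.996 (SE 0.23), or 1.99-fold lower in tpt1. For 4.11% of all tested spots every tpt1 value lay below every WT value on this scale. Both genes are among them, and their choice for a fall favoured this.

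**Figure D2:**
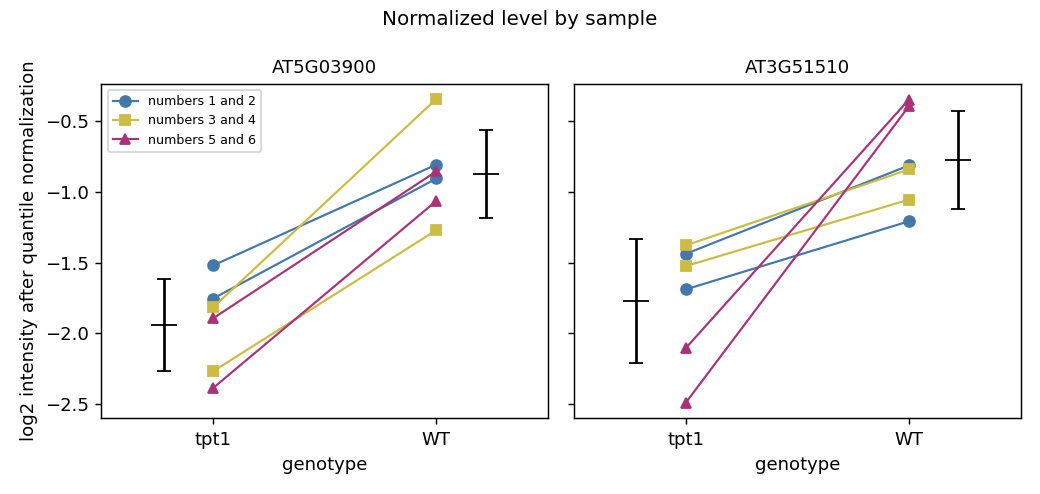
Quantile-normalized log2 intensity of AT5G03900 and AT3G51510 in 6 tpt1 and 6 WT samples, with lines joining equal numbers and black bars for the mean and SD of each genotype. In every pair of equal number the tpt1 sample lies below the WT sample, with differences of -1.48 to -0.71 for AT5G03900 and of -2.10 to -0.47 for AT3G51510.

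These values selected the genes and are given as a description; the calls below are those of the selection and support nothing further. Among the spots tested after quantile normalization, 6.39% were called lower in tpt1 at an adjusted p under 0.05, and among the 570 tested spots of a single gene 4.56% were. Both members are among these 26 single-gene spots, at the sixth and eighth place by size of fall. Neither is called, and the 26 become 6, when neighbouring sample numbers are treated as a random block (correlation 0.63); averaged to 3 values per genotype with no set block, 0 spots are called by limma, with 383 at an unadjusted p under 0.05. Without normalization 2.56% of tested spots were called lower, and neither member was among them: the log2 change was -0.25 for AT5G03900 (SE 0.28) and -0.25 for AT3G51510 (SE 0.28), beside a median of 0.86 over all tested spots. On that scale 6.84% of tested spots had a more negative change than AT5G03900, and 7.02% a more negative one than AT3G51510. Median centring of each array gave changes of -1.11 (SE 0.21) for AT5G03900 and -1.11 (SE 0.25) for AT3G51510. The word fall is used here for a level relative to the other spots, and not for the deposited intensity itself.

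**Figure D3:**
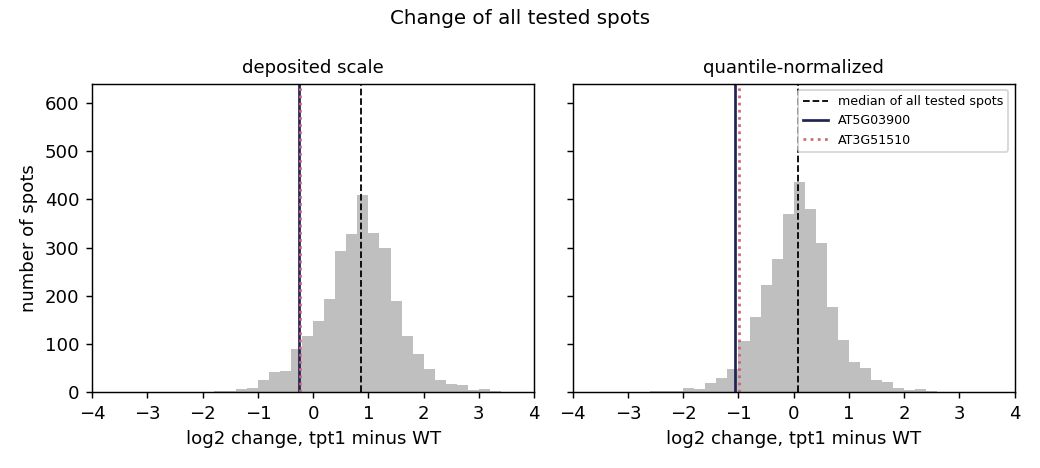
Distribution of the log2 change (tpt1 minus WT) over 2849 tested spots on the deposited scale (left, 1 spot beyond the axis) and after quantile normalization (right). On both scales AT5G03900 and AT3G51510 lie in the lower tail, at -0.25 each against a median of 0.86 on the left, and at -1.07 and -0.996 against a median of 0.08 on the right.

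No gap separated the members from other genes. Among the 570 tested spots of a single gene, ordered from the most negative normalized change, AT5G03900 ranked 16 and AT3G51510 ranked 21. Next to AT5G03900 stood PSBY, a small subunit of photosystem II, at -1.08 (SE 0.11), and AT3G22150 at -1.05 (SE 0.27). Next to AT3G51510 stood AT3G51500 at -1.03 (SE 0.60) and AT4G27390 at -0.99 (SE 0.59). The changes of these last 2 were of like size to those of the members but had larger SEs. AT4G27390 was weak, with intensities from 0.0225 to 0.114 in tpt1 and from 0 to 0.0756 in WT. AT3G51500 had values of 0 in both genotypes. Within genotypes the SD of AT5G03900 was 0.33 in tpt1 and 0.31 in WT, below the median SD over spots of 0.42 in tpt1 and 0.46 in WT, while AT3G51510 had 0.44 in tpt1 and 0.35 in WT.

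AT3G51500 is also the gene directly beside AT3G51510 in the reference annotation, and the only one of the 10 genes on either side of each member that had a spot of its own. Its intensities were 0.414, 0.459, 0.126, 0.520, 0 and 0.0402 in tpt1 samples 1 to 6, against 0.319, 0.250, 0.196, 0.359, 0 and 0 in WT samples 1 to 6. The genotypes overlapped, and numbers 5 and 6 were at or near 0 in both, the WT samples in which the normalized level of AT3G51510 was highest. Its normalized change did not pass (adjusted p = 0.321), and it rests on 5 tpt1 and 4 WT values above 0.

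The choice of the genes rested on the mean difference between genotypes and on its call. The error of that call holds the variation between samples of a genotype, so the choice favoured differences that varied little between numbers. The tests of sets below are therefore not independent of the choice. Neighbouring numbers (1 and 2, 3 and 4, 5 and 6) formed 3 sets whose medians lay close within each genotype. These sets were seen in the data and are not groups named by the labels. The mean normalized log2 difference of AT5G03900 between tpt1 and WT was -0.78, -1.24 and -1.18 in sets 1, 2 and 3. The test of set by genotype did not pass for it (limma F test, adjusted p = 0.814 over 2777 spots).

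For AT3G51510 most of the fall lay in set 3. Its mean normalized log2 level was -1.56 in tpt1 and -1.01 in WT for set 1, -1.45 in tpt1 and -0.95 in WT for set 2, and -2.30 in tpt1 and -0.37 in WT for set 3. The differences were -0.55, -0.50 and -1.93, and the test of set by genotype passed (limma F test, adjusted p = 0.0280), as it did for 5.98% of the spots tested. It passed as well on the deposited scale (adjusted p = 0.0225, 5.62% of spots called), with median centring (adjusted p = 0.0158, 5.26% called) and with the replicate number as a block (adjusted p = 0.0115, 9.56% called). The deposited log2 differences had opposite signs between sets, with values of 0.28, 0.21 and -1.23. The normalized change over the remaining numbers was -0.50 without numbers 5 and 6, against -1.26 without numbers 1 and 2 and -1.26 without numbers 3 and 4.

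The call of this dependence changed when single samples were left out. Leaving out 1 sample at a time kept the normalized difference in set 3 between -2.11 and -1.73, against -0.75 to -0.36 in set 1 and -0.60 to -0.39 in set 2. The adjusted p-values ran from 0.0264 to 0.0998, and the call was lost without tpt1 1 (0.0669), tpt1 2 (0.0510), tpt1 3 (0.0596), tpt1 5 (0.0998), WT 5 (0.0668) or WT 6 (0.0757). The F test measures sets against the spread between 2 neighbouring samples, and if neighbours are repeats of one extract that spread is technical. Samples 5 and 6 also stood apart in overall brightness, with the lowest medians of their genotype, at -1.41 and -1.42 in tpt1 and -2.38 and -2.33 in WT. The difference of AT3G51510 in set 3 was -1.93 after quantile normalization and -2.18 with median centring. The part of the shift in brightness in this result was not tested.

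**Figure D4:**
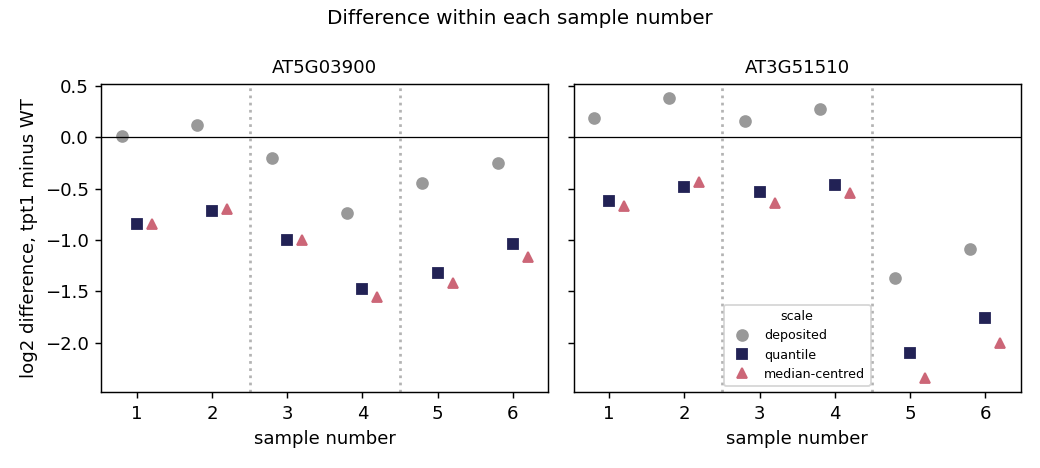
Log2 difference (tpt1 minus WT) within each sample number for AT5G03900 and AT3G51510 on the deposited, quantile-normalized and median-centred scales; dotted lines part the 3 sets of neighbouring numbers. The normalized differences of AT5G03900 run from -1.48 to -0.71 over all numbers, while those of AT3G51510 lie between -0.63 and -0.47 for numbers 1 to 4 and at -2.10 and -1.76 for numbers 5 and 6.

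A second question is whether the genes varied between sets over both genotypes. The genotype call counted such variation as error, so the choice favoured genes that varied little between sets. After quantile normalization 45.3% of tested spots differed between sets, and neither member passed (limma F test, adjusted p = 0.488 for AT5G03900 and 0.908 for AT3G51510). AT5G03900 averaged -1.25, -1.42 and -1.55 over both genotypes in sets 1, 2 and 3, and AT3G51510 averaged -1.29, -1.20 and -1.34. For AT3G51510 the genotypes moved in opposite directions in set 3, with tpt1 down and WT up relative to the other sets. In the deposited values, where the brightness of the sets is left in, AT5G03900 did differ between sets (adjusted p = 0.0259, with 47.6% of spots called) and AT3G51510 did not pass (adjusted p = 0.222). These fits treat the 4 samples of a set as separate, although samples of equal number correlate. With the number as a random block, whose estimated correlation in this fit was 0.03, the adjusted p was 0.498 and 0.912 after quantile normalization (44.3% of spots called), and 0.0277 and 0.239 in the deposited values (46.5% called), AT5G03900 first.

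The 2 genes showed little covariation from sample to sample after quantile normalization. After the mean of each genotype was subtracted, their normalized levels had a Pearson r of 0.07 and a Spearman rho of 0.02 over the 12 samples, close to the median r of 0.06 between AT5G03900 and the other 477 single-gene spots with values in all samples. Samples of equal number correlate, so r describes these samples and carries no p. The deposited values gave an r of 0.46, beside a median over these spots of 0.49 for AT5G03900 and 0.23 for AT3G51510, for which AT5G03900 ranked 125 of 477. That r was 0.35 without tpt1 5 and WT 4, the samples farthest from the median of AT5G03900, and -0.02 without tpt1 5 and tpt1 6, those farthest for AT3G51510.

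The spots most like AT5G03900 by this measure were AT5G63490 (r = 0.84, rho = 0.81), AT1G62780 (r = 0.75, rho = 0.69) and AT4G22830 (r = 0.75, rho = 0.74). Without WT 4 and tpt1 5, the samples farthest from the median of AT5G03900, r was 0.87, 0.84 and 0.83. AT5G63490 also ranked first on the deposited scale (r = 0.92) and with median centring (r = 0.82), whereas AT4G22830 ranked 16 with median centring (r = 0.59, and 0.36 without the same 2 samples). Their normalized genotype changes were unlike that of AT5G03900: AT4G22830 rose by 0.62 in log2 (SE 0.17, adjusted p = 0.0331), AT5G63490 was at 0.19 (adjusted p = 0.734) and AT1G62780 at -0.03 (adjusted p = 0.977). The deposited intensities of AT4G22830 overlapped, from 14.8 to 37.5 in tpt1 (median 31.4) and from 17.8 to 32.5 in WT (median 28.9).

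The spots most like AT3G51510 were AT3G26630 (r = 0.90, rho = 0.88), AT3G26580 (r = 0.83, rho = 0.82) and AT3G14890 (r = 0.77, rho = 0.85). Without tpt1 5 and WT 2, r was 0.89, 0.82 and 0.71. AT3G26630 ranked first on all 3 scales. Its r in the deposited values was 0.67 without tpt1 5 and tpt1 6, against 0.89 over all 12 samples. The same samples left out gave 0.55 for AT3G26580, against 0.84 over all, and 0.54 for AT3G14890, against 0.86 over all. AT3G26580 ranked 12 with median centring (r = 0.60). AT3G26630 was bright, with intensities from 12.2 to 31.7 in tpt1 (median 26.1) and from 26.1 to 31.6 in WT (median 28.7), and its normalized level did not pass between genotypes (log2 change 0.05, SE 0.14, adjusted p = 0.853). The other 2 were lower in tpt1 after quantile normalization: the change was -0.96 for AT3G14890 (SE 0.21, adjusted p = 0.0100) and -0.45 for AT3G26580 (SE 0.13, adjusted p = 0.0367). Their deposited changes of -0.12 (adjusted p = 0.707) and -0.11 (adjusted p = 0.454) did not pass.

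Genes of plastid processes were looked up beside the members, to which no role is attached here. Of 29 genes for plastid proteins that carry iron-sulphur clusters, 4 were measured on their own spots, all of them tested. Of these, 0 were higher, 1 was lower and 3 did not pass, where 4.56% of tested single-gene spots were called lower. Their median normalized change was -0.28, beside 0.08 for all tested spots, and 0.62 on the deposited scale. The 1 lower gene was AT2G04700, the catalytic subunit of ferredoxin-thioredoxin reductase, at -1.27 (SE 0.35, adjusted p = 0.0297). Like the members, it overlapped between genotypes on the deposited scale, with intensities from 0.137 to 0.420 in tpt1 (median 0.203) and from 0.190 to 0.446 in WT (median 0.243).

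The other 3 did not pass after quantile normalization. AT3G23940, a dihydroxyacid dehydratase of branched-chain amino acid synthesis, was at -0.62 (SE 0.26, adjusted p = 0.149). SIRB, the ferrochelatase that completes sirohaem, was at 0.23 (SE 0.30, adjusted p = 0.682), and THIC, an enzyme of thiamine synthesis, at 0.05 (SE 0.17, adjusted p = 0.878). Before normalization SIRB and THIC were higher in tpt1, by 1.15 (adjusted p = 0.00178) and 0.90 (adjusted p = 0.00317), close to the median of 0.86 over all tested spots. The deposited changes of AT5G03900 and AT3G51510, at -0.25 each, lay more than 1 below that median.

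Of 28 listed genes for proteins of thylakoid and envelope membranes, 2 appeared on spots annotated to several genes and 1 had a spot of its own. This was FZL, a dynamin-like protein of the thylakoid and envelope, with intensities from 0.00679 to 0.0743 in tpt1 (median 0.0357) and from 0 to 0.0900 in WT (median 0.0382), above 0 in 6 tpt1 and 4 WT samples. Its normalized log2 change of -1.97 had an SE of 0.91 and did not pass (adjusted p = 0.197). None of the 18 genes of iron-sulphur cluster assembly had a spot of its own. Neither member is in these lists, and the lists hold too few measured genes to say how their processes moved.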

How the data were processed

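The authors deposited a linear intensity from 0 to 100 per spot for each of 12 samples. The reading, background correction and scaling behind these intensities are not given in the sources used here, so scale, centring and the meaning of a reading of 0 stay unknown. The precision is limited by the number of arrays.

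Zeros were set to missing, log2 was taken and, as sample medians differed by over 0.1, samples were quantile normalized. Spots with at least 4 values above 0 in each group were tested with limma 3.58.1 (trend in the prior variance; R 4.3.3, statmod 1.5.0) and Benjamini-Hochberg adjustment over all tested spots at 0.05. Set terms were tested with limma's F test where all terms could be estimated. Plots used matplotlib 3.10.9 (Python 3.11.15). The fits were tested on simulated data. Genes were named through gene identifiers from the platform annotation and TAIR10.1, with 690 loci matched; no coordinates are given, since the authors' build is unknown, and no sequences were used here. The members, lists and tests were chosen with earlier results of these data known.

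Named genes are the members, every tested gene of the 3 plastid lists, for each member the 3 single-gene spots with the highest r of deviations from the genotype means, and the spots 1 rank above and below each member. Samples of equal number correlated at 0.47 to 0.61 after subtraction of group means, over 2383 spots, and 12 of 12 correlated best with their own number, so the numbers were taken as pairs; the labels do not say what a number marks. Neighbours in a set correlated at 0.24 to 0.75 in tpt1 and -0.06 to 0.28 in WT. Within tpt1, samples 1 and 2 (0.75) and samples 5 and 6 (0.66) correlated more closely than any samples of equal number.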

Additional observations from a re-analysis of the deposited data

Results flagged for a closer look

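The genotype difference of AT3G51510 varied between the 3 sets of neighbouring sample numbers (limma F test, adjusted p = 0.0280), with log2 differences of -0.55, -0.50 and -1.93. Samples standing far from their group were sought in 34 groups of 4 to 6 values; 2 were found, neither of them a value of AT5G03900 or AT3G51510, and chance alone gives about 1.7. FZL (AT1G03160) had a normalized log2 level of -5.08 in WT 6, while its remaining non-zero WT samples ran from -3.21 to -3.06. AT4G27390 had -5.44 in WT 3, while its remaining non-zero WT samples ran from -3.57 to -2.84.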

How the results depend on the processing

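The changes of AT5G03900 and AT3G51510 chose these genes, so their direction and calls here describe the fits and say nothing about stability. Over 28 alternatives the log2 change ran from -1.25 to -0.25 for AT5G03900 and from -1.26 to -0.25 for AT3G51510; leaving out 1 sample gave -1.17 to -0.96 and -1.09 to -0.85. The replicate block left the changes at -1.07 and -0.996 and both called. Neither was called on the deposited scale (-0.252 and -0.245), with or without the replicate block, with neighbouring numbers as a random block (-1.07 and -0.996) or with neighbours averaged without a set block, and AT3G51510 was not when neighbours were averaged under a set block (-0.996).

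Called spots numbered 364 (182 higher, 182 lower), 1396 on the deposited scale (1323 higher, 73 lower), 489 with median centring (133 higher, 356 lower), 906 with the replicate block, 122 with the random block and 0 with averaged neighbours and no set block, where 383 had an unadjusted p under 0.05. Without numbers 1 and 2 there were 180 and without 3 and 4 there were 154, alternatives added after seeing the data. The 26 single-gene spots called lower became 4 on the deposited scale and 67 with median centring. With the replicate block there were 68, and with the random block 6. With neighbours averaged there were 0 without a set block and 22 under a set block, where 350 spots were called in all. Without numbers 1 and 2 there were 11, and without 3 and 4 there were 7. The 166 spots with a dependence on set became 259 with the replicate block and 110 to 176 with 1 sample left out. The causes were not tested.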
